A study of Oryza sativa with 6 samples.

Results

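The calcium sensor genes of rice were followed in stem bases of the crown rootless1 mutant (*crl1*) and of wild type (WT). They are the genes that a rice gene annotation names CIPK, CBL, CPK (or CDPK), CAM or CML with a number. The annotation holds 92 such genes, 77 of them have a probe set paired with that gene alone on the GeneChip Rice Genome Array, and 65 had enough signal to be tested, of 15040 genes tested in all. Each gene was read through its brightest probe set. Stem bases were cut from 7-day-old plantlets of *crl1* and of WT, both in cultivar Taichung 65, grown on vertical plates of half-strength MS medium under a 12 h light and 12 h dark cycle. The *crl1* plants carry a mutation in CRL1, a transcription factor of the AS2/LOB family, and make no crown roots. CRL1 was not found by name in the annotation used here, and its own signal is not analysed here. The sources used here give no number of lines, and each array holds RNA pooled from many stem bases. There are 3 arrays of *crl1* and 3 of WT, and the labels number them as experiments 1 to 3, each with 1 array of either genotype. The study's methods call them biological replicates.

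Calcium ions carry signals in plant cells, and the sensors among these proteins read them by means of calcium-binding loops called EF-hands. Calmodulins (CAM) and calmodulin-like proteins (CML) are sensors without enzyme activity that bind and switch other proteins. Calcineurin B-like proteins (CBL) are sensors that dock on a dedicated family of kinases, the CBL-interacting protein kinases (CIPK), and bring them to a membrane. Calcium-dependent protein kinases (CPK) hold the sensor and the kinase in a single protein. In roots the CBL and CIPK modules are known for control of potassium and sodium transport.

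The deposited value is the MAS5 signal, a linear intensity per probe set, scaled by the authors on each array to a target of 100. A probe set was tested when its geometric mean signal over the 6 arrays was at least 20. The share of all probe sets at or above that signal was 43.8 to 46.5% in *crl1* arrays and 43.9 to 45.5% in WT arrays, and the highest signal was 5761 and 5201 in experiment 3 of *crl1* and WT against 15950 to 18870 in the other 4 arrays. Of the shoot apex markers, OSH1, OSH6 and OSH71 had signals of 190 to 1223 on every array, OSH3 of 12.0 to 74.4, and OSH43 was under the minimum, while of the seed storage genes GLUA1 and RAG1 stayed under 20 on every array and GLUA2 had 51.8 to 72.2 in *crl1* and 67.1 to 80.0 in WT. Of the green leaf markers, CAB2R had 4074 to 9305 in *crl1* and 3934 to 8831 in WT, and rbcS 422 to 688 in *crl1* and 452 to 955 in WT. The 6 markers of root and crown root primordia summed to signals of 470, 367 and 720 in *crl1* and 536, 500 and 765 in WT, with QHB under the signal minimum. None of the other 5 passed between the genotypes, but 3 had an unadjusted p under 0.05, in both directions. WOX11, which promotes crown root growth, had 198, 114 and 151 in *crl1* and 97.4, 80.6 and 98.2 in WT, all *crl1* arrays above all WT arrays (log2 fold change 0.71, limma adjusted p = 0.0867). NAS1 stood at -1.45 (limma adjusted p = 0.0969) and PIN2 at -0.70 (limma adjusted p = 0.437). The part of cell composition in the values below was not tested. In a bulk sample like this, fewer cells of a type and less RNA per cell cannot be told apart.

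Of 24 CIPK genes on the array 21 were tested, of 7 CBL genes 6, of 20 CPK genes 16, of 3 CAM genes all 3 and of 23 CML genes 19. The 12 genes under the minimum were CIPK5, CIPK20, CIPK30, CBL5, CPK2, CPK6, CPK22, CPK29, CML3, CML24, CML28 and CML32, with geometric mean signals of 1.15 to 17.8. The gene nearest above the minimum was CML5 at 20.1 and the nearest below it CML3 at 17.84. Across single arrays 61 of the 77 genes had a signal of at least 20 on all 6, 11 on none and 5 on some. A further 15 genes had no probe set of their own in the table used here, among them CBL1, the partner through which CIPK23 acts on a potassium channel, and CIPK15, a kinase of the rice response to low oxygen. The brightness of different probe sets also depends on the probes, so levels are not compared between genes.

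None of the 65 calcium sensor genes passed the test between *crl1* and WT (limma on log2 signal with the experiment number as a block, adjusted p under 0.05, n = 3 arrays per genotype). Over all 25045 tested probe sets 0.651% passed, 0.204% higher and 0.447% lower in *crl1*, and over the brightest probe sets of all tested genes 0.658%, 0.186% higher and 0.472% lower. The smallest adjusted p among the members was 0.268, that of CIPK23. At an unadjusted p under 0.05 there were 6 genes, or 9.23%, close to the 9.76% of all probe sets and 9.55% of all genes. Log2 fold changes were positive in 31 genes and negative in 34, with a median of -0.0047 against 0.0034 over all tested probe sets. The median size of the change, without its sign, was 0.09 against 0.11 over all tested genes. In 62 genes the 95% interval of the fold change lay within 2-fold either way, and in 46 within 1.5-fold. Within 2-fold lay 94.2% of all tested genes and 90.4% of all probe sets, and within 1.5-fold 72.8% and 62.1%. No tested member had a ratio past 2-fold in each of the 3 experiments, the study's ratio criterion, at a limma p of 0.01 or less before adjustment. The study's own detection calls and p-values per replicate were not used here. CML32, under the signal minimum and not tested, had log2 ratios of -1.58, -2.74 and -2.04. The 3 genes whose interval reached past 2-fold were CPK21, CPK9 and CML5.

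The subfamilies had medians near 0 except CBL. The 21 CIPK genes had a median log2 fold change of 0.03 (range -0.35 to 0.43) with 13 positive and 8 negative values, and 3 genes at an unadjusted p under 0.05. The 6 CBL genes had a median of -0.15 (-0.35 to 0.29), with 2 positive and 4 negative values and 1 at that p. The 16 CPK genes had a median of -0.02 (-0.60 to 0.76), with 7 and 9, and 2 at that p. The 3 CAM genes lay between -0.03 and 0.02. The 19 CML genes had a median of -0.0047 (-0.36 to 0.32), with 8 positive and 11 negative values and 0 at that p, their smallest adjusted p being 0.512. Within the experiments the CBL median was -0.28, -0.06 and -0.15 in experiments 1, 2 and 3, lower in *crl1* each time, while the CIPK, CPK, CAM and CML medians took both signs. The CML median turned to 0.0021 with median centring. These medians describe few genes each and were not tested.

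**Figure D1:**
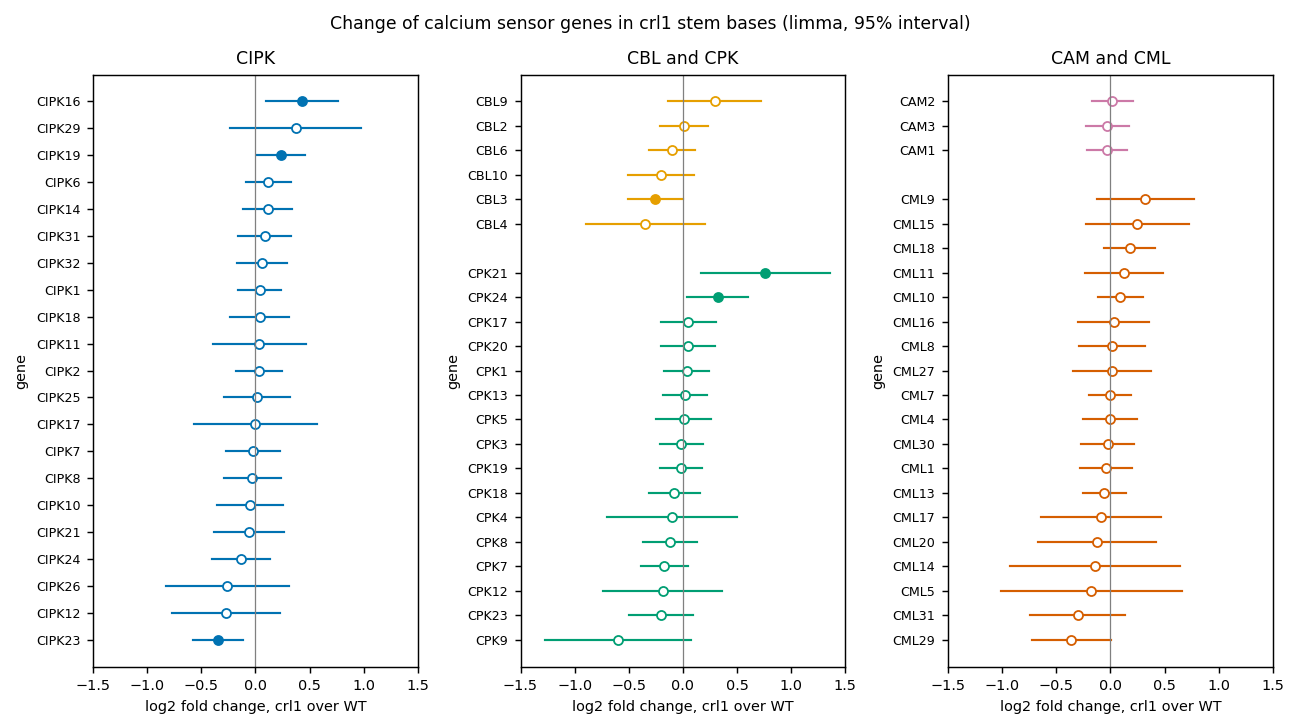
Log2 fold change of *crl1* over WT (x axis, log2 units) for each of the 65 tested genes (y axis), by subfamily. Points are limma estimates from 3 arrays per genotype, bars are 95% intervals, and filled points mark the 6 genes with an unadjusted p under 0.05, none of which passed after adjustment.

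Among the kinases that answer to CBL sensors, CIPK23 (LOC4342410), which in rice activates the root potassium channel AKT1 together with CBL1, had the smallest p of all members. Its signal was 744, 432 and 464 in *crl1* experiments 1 to 3 and 807, 580 and 657 in WT. It was lower in *crl1* in each of the 3 experiments, but the genotypes overlapped, with experiment 1 high in both. The log2 fold change with its standard error, given in this form throughout, was -0.35 ± 0.10 (limma adjusted p = 0.268). CIPK16 (LOC4347071) had 110, 90.2 and 135 in *crl1* and 76.7, 66.7 and 107 in WT, higher in *crl1* in every experiment and with overlap between the genotypes. Its log2 fold change of 0.43 ± 0.15 (limma adjusted p = 0.353) was the highest of the CIPK genes, on a probe set whose type can cross-hybridise with related transcripts. CIPK19 (LOC4339306) stood at 362, 321 and 346 in *crl1* and 306, 268 and 300 in WT. All 3 *crl1* arrays lay above all 3 WT arrays, the log2 ratio was 0.24, 0.26 and 0.21 in the 3 experiments, and the fit gave 0.24 ± 0.10 (limma adjusted p = 0.476). No other tested member had *crl1* wholly above WT. CPK8 (LOC4334519), at 239, 213 and 240 in *crl1* and 245, 262 and 244 in WT, was the only tested member wholly below, with a log2 fold change of -0.12 ± 0.11 (limma adjusted p = 0.804), and was picked out after its values were seen. Over all tested probe sets 3.65% lay wholly above and 3.64% wholly below, 7.29% together, and over all tested genes 3.05% and 3.92%, 6.96% together, so 1 of 65 each way is under the background. Among the 12 members under the signal minimum, CIPK30 lay wholly above, with signals of at most 1.70, and CML32 wholly below, with 3.46, 1.54 and 1.49 in *crl1* and 10.3, 10.3 and 6.14 in WT. They were not tested. In 8 tested members *crl1* was higher and in 13 lower in every experiment, against 31.2% of all probe sets and 31.0% of all genes with the same direction in every experiment. CIPK24 (LOC4341477), the counterpart of Arabidopsis SOS2, which activates the sodium exporter SOS1, had 177, 158 and 131 in *crl1* and 203, 169 and 140 in WT. That is slightly lower in each experiment, with a log2 fold change of -0.13 (limma adjusted p = 0.791, 95% interval -0.40 to 0.13).

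**Figure D2:**
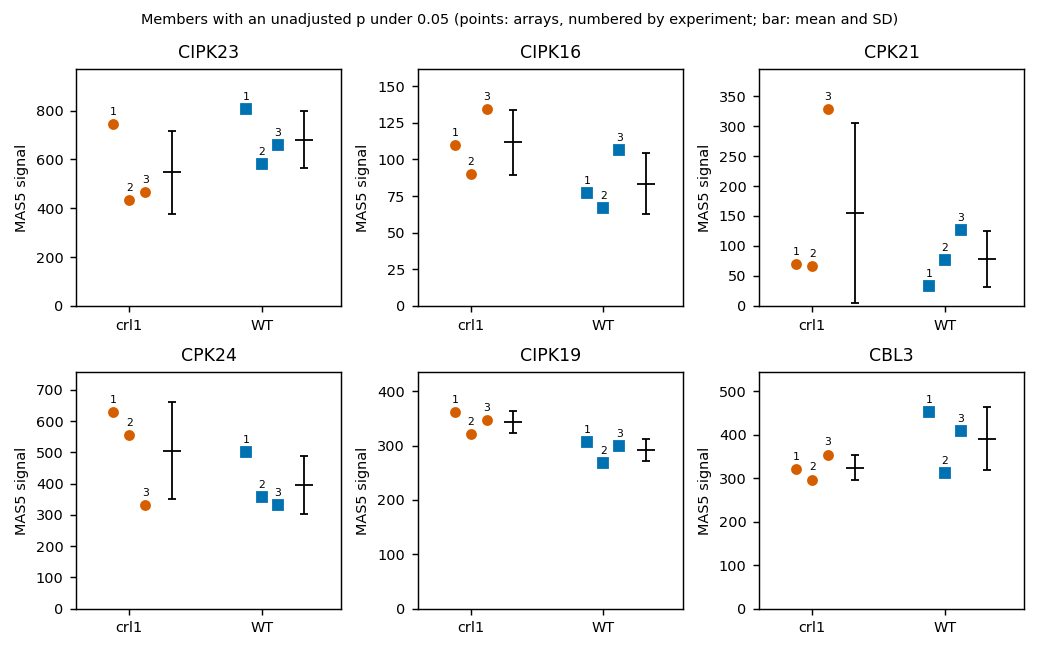
MAS5 signal (y axis, linear, from 0) of the 6 genes with an unadjusted p under 0.05, in *crl1* (circles) and WT (squares). Numbers beside the points give the experiment, and the bar beside each group gives the mean and SD of its 3 arrays. CIPK19 is the only 1 of the 6 whose groups do not overlap, and the *crl1* spread of CPK21 comes from experiment 3, at 329 against 69.9 and 66.9.

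Of the 6 CBL sensors 4 had negative log2 fold changes and none passed. CBL3 (LOC4333502), whose Arabidopsis namesake sits on the vacuolar membrane, had 322, 297 and 354 in *crl1* and 453, 311 and 409 in WT. It was lower in every experiment, with a log2 fold change of -0.26 ± 0.11 (limma adjusted p = 0.506), and -0.14 without experiment 1. CBL4 (LOC4339432), the relative of SOS3, the Arabidopsis partner of SOS2, had weak signals of 21.4, 28.6 and 39.0 in *crl1* and 29.3, 33.2 and 50.4 in WT. It had the lowest value of the subfamily, -0.35, with a wide 95% interval of -0.89 to 0.20 (limma adjusted p = 0.71). CBL10 (LOC4325933), which can take the place of SOS3 in Arabidopsis shoots, had 114, 119 and 204 in *crl1* and 158, 125 and 213 in WT (log2 fold change -0.20 ± 0.14, limma adjusted p = 0.698), and its value was -0.064 without experiment 1. CBL9 (LOC9269084) had the highest value of the subfamily, 0.29 ± 0.19 (limma adjusted p = 0.688), with 92.4, 73.4 and 60.3 in *crl1* and 68.0, 50.8 and 64.5 in WT. A dimmer probe set of CBL9 stood at -0.28 ± 0.22, so its direction depends on the probe set, the brighter one gave 0.17 without experiment 2 and 0.49 without experiment 3, and both probe sets are of the type that can cross-hybridise.

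Among the kinases with a built-in sensor, CPK21 (LOC4346187), tied in rice to the responses to abscisic acid and salt, had the highest log2 fold change of all tested members, 0.76 ± 0.27 (limma adjusted p = 0.374, 95% interval 0.16 to 1.36). Its signal was 69.9, 66.9 and 329 in *crl1* and 32.9, 75.7 and 127 in WT. It was higher in *crl1* in experiments 1 and 3 and lower in experiment 2, and the genotypes overlapped. Without experiment 3 the log2 fold change was 0.45 (limma adjusted p = 0.969) and without experiment 1 it was 0.60 (limma adjusted p = 0.509). Without experiment 2 it was 1.23 and CPK21 passed (limma adjusted p = 0.0246), the only call of a member between genotypes in any setting tried, where its adjusted p ran from 0.0246 to 1.00. CPK24, a rice kinase linked to cold, had 630, 555 and 331 in *crl1* and 502, 357 and 331 in WT. The log2 ratio was 0.33, 0.64 and 0.0036 in experiments 1, 2 and 3, so that *crl1* was barely higher in the last. The log2 fold change was 0.32 ± 0.13 (limma adjusted p = 0.438), and 0.17 without experiment 2. CPK9 (LOC4333767), a kinase of the rice response to drought, had the lowest value of all tested members, -0.60 ± 0.30 (limma adjusted p = 0.578), and -0.36 without experiment 1. Its signals lay near the minimum, at 10.2, 19.5 and 42.7 in *crl1* and 21.6, 26.8 and 51.0 in WT. The other 13 CPK genes lay between -0.20 and 0.05.

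The 3 calmodulin genes had the narrowest range of log2 fold changes of the subfamilies. Theirs is also the smallest subfamily, and a range tends to widen with more genes. CAM1 (LOC4324384) had signals of 2059, 2298 and 1744 in *crl1* and 2202, 2231 and 1800 in WT, a log2 fold change of -0.03 (limma adjusted p = 0.947, 95% interval -0.22 to 0.15). CAM2 (LOC4339172) had 2018, 2095 and 2087 in *crl1* and 1998, 1974 and 2156 in WT, a log2 fold change of 0.02 (limma adjusted p = 0.976, 95% interval -0.17 to 0.20). CAM3 (LOC4326903) had 1972, 2191 and 2136 in *crl1* and 2161, 2308 and 1963 in WT, a log2 fold change of -0.03 (limma adjusted p = 0.959, 95% interval -0.23 to 0.17). The groups overlapped for all 3 genes, and their intervals leave room for changes of at most 0.23 on the log2 scale. Of the calmodulin-like genes, CML9 (LOC4339171) had the highest log2 fold change, 0.32 ± 0.20 (limma adjusted p = 0.674; 0.19 without experiment 2), with 53.4, 49.97 and 70.5 in *crl1* and 45.2, 33.6 and 63.7 in WT. CML29 (LOC4341908) had the lowest, -0.36 ± 0.16 (limma adjusted p = 0.512), with 501, 249 and 1420 in *crl1* and 525, 482 and 1490 in WT. That value came from experiment 2, where the log2 ratio was -0.95, against -0.07 in experiments 1 and 3. Without experiment 2 the fold change was -0.07.

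More members passed between experiments than between genotypes. In the fit over all probe sets, 18 of the 65 genes (27.7%) differed with the experiment number (limma F-test over the 3 experiments, adjusted p under 0.05), against 21.4% of all tested probe sets and 24.2% of tested genes. By subfamily these were 8 of 19 CML genes, 6 of 21 CIPK, 3 of 16 CPK, 1 of 6 CBL and 0 of 3 CAM genes (for CAM also 1 at an unadjusted p under 0.05). The median distance between the highest and the lowest experiment, averaged over the genotypes, was 0.82 on the log2 scale in CML genes, 0.51 in CIPK, 0.35 in CBL, 0.26 in CPK and 0.135 in CAM genes, against 0.40 over all tested genes. Without experiment 3 no member passed this test, and only 0.938% of all probe sets did, in a fit on 4 arrays. Without experiment 1, also on 4 arrays, 21 members passed, and so did 25.3% of all probe sets. Without experiment 2, on 4 arrays too, 20 members passed.

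All 8 CML genes that passed were highest in experiment 3 in both genotypes. Among all genes that passed, 45.0% were highest and 44.6% lowest there in both genotypes. Counting also those that did not pass, 13 of 19 CML genes were highest in experiment 3 in both genotypes (68.4%), against 26.1% of tested genes, and 1, CML17, was lowest, against 29.6%. Over all tested probe sets these shares were 23.9% and 28.7%. It was not seen in CML genes alone, since 4 of 6 CBL genes (66.7%) and 10 of 21 CIPK genes (47.6%) were highest in experiment 3 in both genotypes too, but 3 of 16 CPK genes (18.8%) and 0 of 3 CAM genes. The median CML gene stood 0.41 above its mean over the experiments on the log2 scale in experiment 3, while the median of all tested genes was -0.01. With quantile normalization the CML median was 0.43 with 14 of 19 highest, and with median centring 0.38 with 12 of 19. In CBL genes these counts were 2 and 3 of 6, and in CAM genes 2 and 0 of 3. In CIPK genes they were 10 and 8 of 21, and in CPK genes 3 of 16 both times. So every subfamily count except that of the CPK genes changed with the scaling. CAM2 passed between the experiments with quantile normalization (limma F-test adjusted p = 0.0207) and CAM1 with median centring (limma F-test adjusted p = 0.047). Experiment 3 was singled out with these values known, and nothing in the labels says how the experiments differed. Some tissue markers passed the test between the experiments as well. They were 2 of 2 tested green leaf, 2 of 4 shoot apex, 1 of 5 root and 0 of 1 seed markers. CAB2R had 8465, 9305 and 4074 in *crl1* and 8831, 7927 and 3934 in WT (limma F-test adjusted p = 0.000323), and OSH1 1223, 1003 and 774 in *crl1* and 963, 882 and 633 in WT (limma F-test adjusted p = 0.00734), both lowest in experiment 3. The leaf gene rbcS had 491, 422 and 688 in *crl1* and 544, 452 and 955 in WT (limma F-test adjusted p = 0.00293), and NAS1 60.8, 29.0 and 337 in *crl1* and 197, 154 and 402 in WT (limma F-test adjusted p = 0.00509), both highest there. OSH3 had 74.4, 12.3 and 30.4 in *crl1* and 28.3, 12.0 and 33.8 in WT (limma F-test adjusted p = 0.0259), lowest in experiment 2. OSH6 and OSH71 were also lowest in experiment 2 in both genotypes and did not pass (limma F-test adjusted p = 0.331 and 0.100). The part of these differences in the CML values was not tested.

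CML4 (LOC4334072) had 234, 190 and 492 in *crl1* experiments 1 to 3 and 224, 217 and 454 in WT (limma F-test adjusted p = 0.000648). Experiment 3 stood about equally high in both genotypes, and the log2 fold change between them was -0.0047. CML30 (LOC4340272) showed the same picture, with 232, 261 and 581 in *crl1* and 256, 284 and 511 in WT (limma F-test adjusted p = 0.000781). CML10 (LOC4325762) had 372, 359 and 676 in *crl1* and 342, 335 and 654 in WT (limma F-test adjusted p = 0.00081). Its experiments 1 and 2 differed little within either genotype. CML18 (LOC9266860) had 415, 520 and 848 in *crl1* and 413, 390 and 786 in WT (limma F-test adjusted p = 0.00158), and CML1 (LOC4327351), also named CAM61, 2357, 1506 and 3156 in *crl1* and 2126, 1895 and 3021 in WT (limma F-test adjusted p = 0.00442). CML29, given above, spanned 2.07 on the log2 scale between experiments, the widest of the CML genes (limma F-test adjusted p = 0.000404). The log2 fold changes of CML10, CML18, CML30 and CML1 between genotypes were 0.09, 0.18, -0.03 and -0.04, with limma adjusted p-values of 0.822, 0.658, 0.971 and 0.951. That of CML18 was 0.057 without experiment 2.

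**Figure D3:**
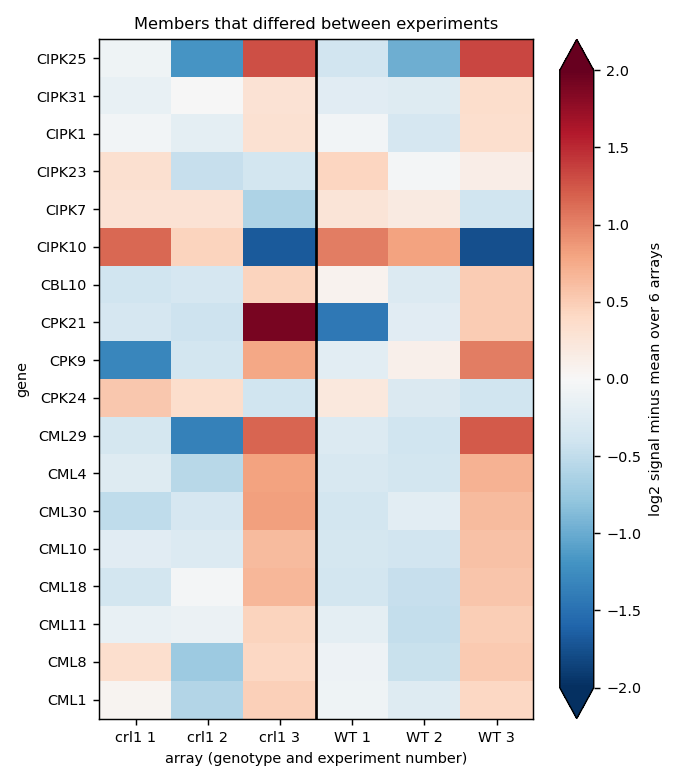
Log2 signal minus the gene's mean over the 6 arrays (colour, limits at -2 and 2) for the 18 genes that differed between experiments (rows), with *crl1* arrays left of the line and WT arrays right of it. The 8 CML genes are red in experiment 3 of both genotypes, and CIPK10 and CIPK25 have the strongest opposite patterns.

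The CIPK genes went both ways between experiments. CIPK10 (LOC4332786) had 400, 244 and 56.4 in *crl1* and 367, 314 and 53.1 in WT, spanning 2.81 on the log2 scale, the widest of all members (limma F-test adjusted p = 3.16e-05). CIPK25 (LOC4341236) had 161, 75.7 and 418 in *crl1* and 131, 87.3 and 432 in WT, spanning 2.39 (limma F-test adjusted p = 9.89e-05). So experiment 3 was the lowest for CIPK10 and the highest for CIPK25, in both genotypes. CIPK7 (LOC4333514), a rice kinase linked to chilling, had 344, 344 and 182 in *crl1* and 335, 318 and 213 in WT, low in experiment 3 (limma F-test adjusted p = 0.00517). Between genotypes the log2 fold changes of CIPK10, CIPK25 and CIPK7 were -0.05, 0.01 and -0.02, with limma adjusted p-values of 0.952, 0.988 and 0.9747. CPK21 (limma F-test adjusted p = 0.00469) and CPK9 (0.027) were also highest in experiment 3 in both genotypes, and CBL10 was the only CBL gene to pass (0.0192), highest there too, while CPK24 (0.018) was lowest. Of the 18 genes 14 were highest and 3 lowest in experiment 3 in both genotypes, and the remaining gene was CIPK23, highest in experiment 1 in both (limma F-test adjusted p = 0.0149). The signals of a pair of clock genes, not tested here, also set experiment 3 apart. CCA1, a clock gene of the morning, had 303, 187 and 1495 in *crl1* and 370, 201 and 1634 in WT, and GI, a clock gene of the evening, 1703, 1476 and 154 in *crl1* and 1658, 1598 and 161 in WT. The part of the clock or of sampling time in the differences of the calcium sensor genes was not tested.

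**Figure D4:**
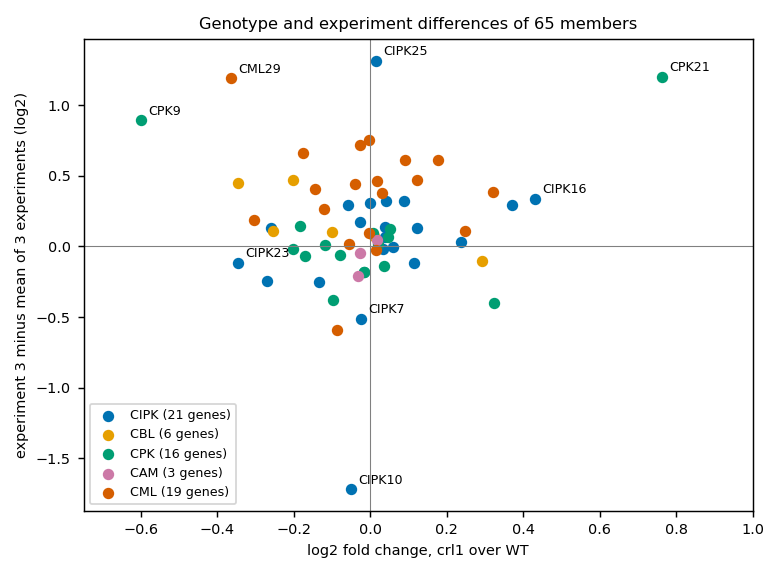
Difference between genotypes (x axis, log2 fold change of *crl1* over WT) against the position of experiment 3 (y axis, its log2 signal minus the mean of the 3 experiments, averaged over genotypes) for 65 genes coloured by subfamily. Most points lie near 0 on the x axis, and CML genes lie above 0 on the y axis except CML27 at -0.03 and CML17 at -0.59.

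In 15 genes several probe sets are paired with the gene, and in 8 of these more than 1 was tested. Of all 76 tested probe sets of members none passed between the genotypes, and 7 had an unadjusted p under 0.05 against 9.76% of all probe sets. Between the experiments 23 passed, against 21.4% of all probe sets. These 23 count all 4 probe sets of CIPK10 and both tested ones of CIPK7 and of CML4. In 4 of the 8 genes the tested probe sets differed in the sign of the log2 fold change. The smallest adjusted p of these probe sets was on the dimmer probe set of CIPK7, singled out after its values were seen. It had 289, 169 and 134 in *crl1* and 453, 290 and 172 in WT, lower in *crl1* in each experiment, with a log2 fold change of -0.60 ± 0.12 (limma adjusted p = 0.0722). The brighter probe set of CIPK7, given above, stood at -0.02 with a 95% interval of -0.28 to 0.23, apart from that of the dimmer one, -0.87 to -0.33. The dimmer probe set of CIPK23 had 352, 407 and 298 in *crl1* and 442, 343 and 345 in WT. Its log2 fold change was -0.10 ± 0.13 (limma adjusted p = 0.867), lower in *crl1* in experiments 1 and 3 but not in experiment 2. Between experiments some genes had like probe sets and others did not. All 4 probe sets of CIPK10 were lowest in experiment 3 in both genotypes, the dimmest with 141, 100.4 and 18.0 in *crl1* and 178, 72.1 and 14.5 in WT. Both tested probe sets of CML4 were highest there, the dimmer with 164, 140.3 and 352 in *crl1* and 136, 161 and 305 in WT. In CIPK23 and CIPK31 only the brighter probe set passed between the experiments (limma F-test adjusted p = 0.0149 and 0.0371), the dimmer ones having 0.324 and 0.742. In CBL9, CIPK2 and CPK13 no probe set passed. The probe sets of a gene read the same RNA samples and are not replicates.

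**Figure D5:**
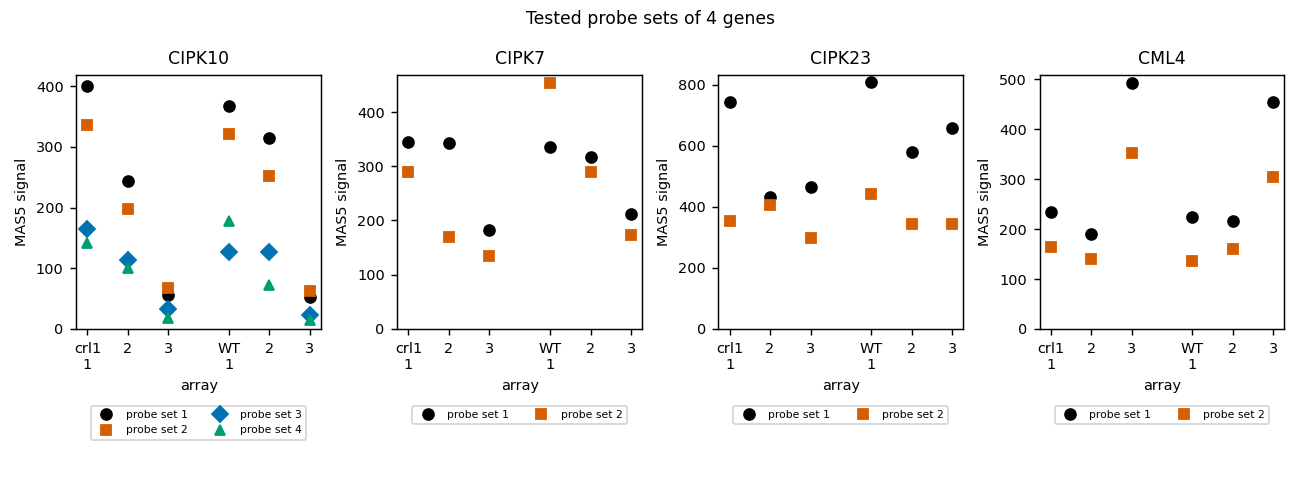
MAS5 signal (y axis, linear, from 0) of each tested probe set of CIPK10, CIPK7, CIPK23 and CML4 on the 6 arrays (x axis, *crl1* experiments 1 to 3, then WT experiments 1 to 3). In both genotypes the probe sets of CIPK10 are all lowest and those of CML4 highest in experiment 3. The brighter probe set of CIPK7 does not show the lower *crl1* signals of the dimmer one.

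Some members are neighbours in the annotation, in 7 pairs with at most 1 gene between them, and in 2 pairs both genes were tested. CIPK29 (LOC4344285) and CIPK2 (LOC4344287) had log2 fold changes of 0.37 and 0.03. The value of CIPK29 came from experiment 1, with 52.8, 49.3 and 59.9 in *crl1* and 23.8, 53.8 and 56.3 in WT (limma adjusted p = 0.726). CML9 and the calmodulin gene CAM2 next to it had 0.32 and 0.02. None of these 4 genes passed between the genotypes or between the experiments.

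Genes around the sensors gave no call between the genotypes either. Of 2 tested genes of calcium entry none had an unadjusted p under 0.05, TPC1, whose Arabidopsis counterpart is a vacuolar channel, standing at 0.07 ± 0.11 (limma adjusted p = 0.899) and the glutamate receptor-like channel gene GLR3.1 at -0.04 ± 0.10 (limma adjusted p = 0.952). Of 6 tested genes of calcium removal 0 passed in either direction and 2 had an unadjusted p under 0.05. ACA8, a pump of the family that drives calcium out of the cytosol, had 440, 344 and 491 in *crl1* and 319, 305 and 365 in WT (log2 fold change 0.35 ± 0.10, limma adjusted p = 0.257), and the calcium and proton exchanger CAX2 99.6, 127 and 141 in *crl1* and 130, 183 and 147 in WT (-0.32 ± 0.14, limma adjusted p = 0.509). Of 20 tested targets and effectors, 16 of them potassium transporters of the HAK family, 0 passed and 6 had an unadjusted p under 0.05, 5 of these with positive and 1 with negative log2 fold changes. Over all features 9.76% of probe sets and 9.55% of genes had such a p, and with the few genes in these lists nothing particular is read from their counts. HAK18 stood at 0.34 ± 0.12 (limma adjusted p = 0.385) and HAK15 at 0.31 ± 0.11 (limma adjusted p = 0.396). AKT1, the channel that CIPK23 acts on, stood at -0.07 ± 0.14 (limma adjusted p = 0.933).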

How the data were processed

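Stem base RNA, 200 ng per amplification, was hybridised by the authors to 6 arrays. The deposited intensity is the MAS5 signal, which the authors computed with Expression Console at default settings, each array being scaled to a target of 100 (program versions not given in the sources). Of 57258 probe sets other than controls, 22436 are paired with 1 gene in the probe table, 95 with several and 34727 with none. Pairings can be old. Names came from RefSeq assembly ASM3414082v1, whose gene positions gave the order of protein-coding genes used to find neighbours. A gene with several family names was counted under its official symbol, otherwise under a name that is not the sole name of another gene, in the order CIPK, CPK, CML, CBL, CAM.

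Log2 signals, with no pseudocount, of the 25045 probe sets (43.7%) with a geometric mean of at least 20 were fitted on genotype and experiment number in limma (version 3.58.1, under R 4.3.3). The variance followed a trend with the mean, with 7.33 prior degrees of freedom. P-values were adjusted by Benjamini-Hochberg over all of these probe sets, with a threshold of 0.05. The study compared genotypes replicate by replicate, and *crl1* and WT arrays of the same number deviated together (correlations 0.39, 0.451 and 0.747), so the number was a block. The 25045 simulated probe sets held 100 with a log2 change of 1 and 100 with one of 2. Of these 81 and 100 were called, and beside these true calls 19 unchanged probe sets were called too. The simulated noise was Gaussian with the variances of the fit itself. Changes under 1 were not simulated, so it is not known how often changes as small as those of the members would be called. The number of arrays limits the precision.

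Named genes were those with an adjusted or unadjusted p under 0.05 between genotypes, the highest and lowest log2 fold change of each subfamily, the 10 smallest p-values between experiments, CIPK23, CIPK24, CBL1, CBL4, CBL10 and the CAM genes, and the 2 smallest p-values of each pathway list. CIPK7's dimmer probe set, CPK8 and genes named to complete a count, a list or a pair fall outside that rule. The members and lists were chosen with earlier results of these data known. Alternatives were no block, no signal minimum or 50, a pseudocount of 16, quantile normalization, centring on the median, no trend, each experiment left out, no probe sets that may cross-hybridise, the mean over probe sets, an adjusted p under 0.01 and the study's ratio rule. Plots were made in matplotlib 3.10.9.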

Additional observations from a re-analysis of the deposited data

How the results depend on the processing

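Between the genotypes no member passed under any alternative except CPK21, the 1 member called without experiment 2, so the count with an experiment left out ran from 0 to 1. The count of calls was 0 without the replicate block too, where 0.02% of all probe sets passed. The count at an unadjusted p under 0.05 was then 0 instead of 6, while the share of all probe sets fell from 9.76% to 2.91%. With an experiment left out the unadjusted count was 2 to 5, lowest without experiment 3 and 3 without experiment 1 (9.24% of all probe sets). Between the experiments 18 members passed, but 6 without the mean-variance trend (4.44% of all probe sets) and 11 at an adjusted p under 0.01 (9.36%). The 6 were CIPK10, CIPK25, CML4, CML10, CML29 and CML30, at limma F-test adjusted p-values of 0.022 to 0.044. No CPK or CBL gene passed without the trend. CPK9 did not pass without the signal minimum either (limma F-test adjusted p = 0.077). With an experiment left out 0 to 21 passed, the 0 being without experiment 3 and the 21 without experiment 1 (25.3%). Each subfamily median moved, under every alternative, by less than the SD of its 3 single-experiment medians. Of the named genes, these turned sign. CAM2 stood at -0.029 with quantile normalization and -0.016 to 0.050 with an experiment left out. CML4 stood at 0.0021 with median centring, 0.094 without probe sets that may cross-hybridise, 0.045 as the mean over probe sets and -0.064 to 0.088 with an experiment left out. CIPK10 stood at 0.074 as the mean over probe sets and -0.14 to 0.11 with an experiment left out. In the same leave-outs CIPK25 ran from -0.13 to 0.12, CML30 from -0.13 to 0.031, CAM3 from -0.10 to 0.023, GLR3.1 from -0.071 to 0.0064, CML1 from -0.13 to 0.11 and CIPK7 from -0.093 to 0.076. CIPK7 stood at -0.31 as the mean over its probe sets. Leaving out an experiment also leaves fewer arrays, and otherwise the cause was not tested. The intervals of CPK21, CPK9 and CML5 reached past 2-fold, and 12 genes under a signal of 20 have no result.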
